A study of Canis lupus familiaris with 8 samples.

Results

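The genes described here are the interleukins, chemokines, tumour necrosis factor (TNF) family members and interferons of the mitral valve leaflet, together with their receptors. They were taken by symbol from the platform annotation. A gene was a member if a probe set carried 1 symbol that started with IL, CCL, CXCL, CCR or CXCR and a digit, or with TNF or IFN, and IL6 and CXCL8 were left out. The rule gave 52 genes and 79 probe sets out of 6540 named genes on the array, and each gene was represented by the probe set with the highest mean log2 signal over all arrays. RNA came from the anterior mitral valve leaflets of 8 dogs, with 1 Affymetrix array per dog. The 4 controls were beagle crosses. The 4 affected dogs had degenerative mitral valve disease (DMVD, a progressive thickening of the leaflets). Affected 1 was a Lhasa apso and affected 3 a Dachshund, while affected 2 and affected 4 were both of the Miniature poodle breed. No control shared a breed with an affected dog, so breed and disease cannot be told apart. The sources used here do not give age, sex or medication, and all tissue had been frozen in liquid nitrogen.

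Cytokines are small secreted proteins through which cells of a tissue call in and steer immune cells. Chemokines act on G protein-coupled receptors and set the direction of leukocyte migration, with CCL proteins drawing mainly monocytes and lymphocytes and CXCL proteins drawing neutrophils or T cells. Interleukins and interferons act on paired receptor chains that signal through kinases to the nucleus, TNF family ligands act on receptors that lead to survival, inflammation or death of the cell, and decoy receptors, antagonists and binding proteins hold several of these ligands in check. In a heart valve such signals can come from interstitial cells and endothelium as well as from resident or recruited macrophages.

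Most members that could be measured had higher signals in affected leaflets, with the greatest differences in the chemokines CCL2 (2.61 on the log2 scale), CCL23 (2.03) and CXCL16 (1.81) and in the interleukin regulators and receptors IL1R2 (1.93), IL18BP (1.77) and IL10RB (1.69). Without control 2 these were 1.87 for CCL2, 0.89 for CCL23, 0.61 for CXCL16, 1.51 for IL1R2, 1.58 for IL18BP and 1.67 for IL10RB. IL15, a growth factor of natural killer cells and memory T cells, had the lowest difference (-0.996, and -0.57 without affected 4). Testing required a signal above the 40th percentile of an array on at least 4 of the 8 arrays, a level between 81.0 and 130.0 signal units. By that filter 33 members were tested and 19 were not, and these 19 are called near background here. Of the 19, 9 exceeded the percentile on 1 to 3 arrays. Of the 33, 29 had a difference above 0 and 4 below it, against 50.5% above 0 over all 14705 tested probe sets. The 29 include 9 members that passed the filter only with affected arrays, CCL23, CXCL16 and IL1R2 among them. Over all tested probe sets of that kind 67.8% were above 0, so 50.5% is too low a comparison for these 9. The median log2 difference of the 33 was 0.62, and over all tested probe sets it was 0.0065.

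No single member is called. In limma with Benjamini-Hochberg adjustment over all tested probe sets, 0 members passed an adjusted p of 0.05, and the share of all probe sets that passed was 0% in the higher direction and 0% in the lower one. The smallest adjusted p of a member was 0.377, for IL10RB. At an unadjusted p under 0.05 there were 6 higher members (CCL2, CCL5, IL10RB, IL18BP, IL1R2 and TNFRSF14) and 1 lower member (IL15), where 4.02% of all tested probe sets were higher and 3.81% lower at that level. Every affected dog lay above every control for 0 members, against 2.35% of all tested probe sets, and below every control for 1 of 33 members, IL15, against 2.31%, a share near the background. Without affected 4 the number of members higher at an unadjusted p under 0.05 was 3, against 3.58% of all tested probe sets.

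The filter and 1 control weigh on these counts. The 9 tested members that exceeded the percentile in fewer than 4 controls (CCL14, CCL23, CCR4, CXCL16, IL18, IL1R2, IL1RN, IL4 and TNFAIP2) needed affected arrays to pass and were all higher, and over the 2919 probe sets of that kind 67.8% were higher. Of the other 24, which exceeded it in all 4 controls, 20 were higher with a median of 0.46, and over the 11786 probe sets of that kind 46.2% were higher with a median of -0.035. Without control 2, 26 of 33 tested members were higher with a median of 0.47, against 49.7% of all tested probe sets with a median of -0.0017. Of those 24 members, 17 were then higher with a median of 0.20, against 45.6% and -0.041 over the probe sets of that kind.

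**Figure D1:**
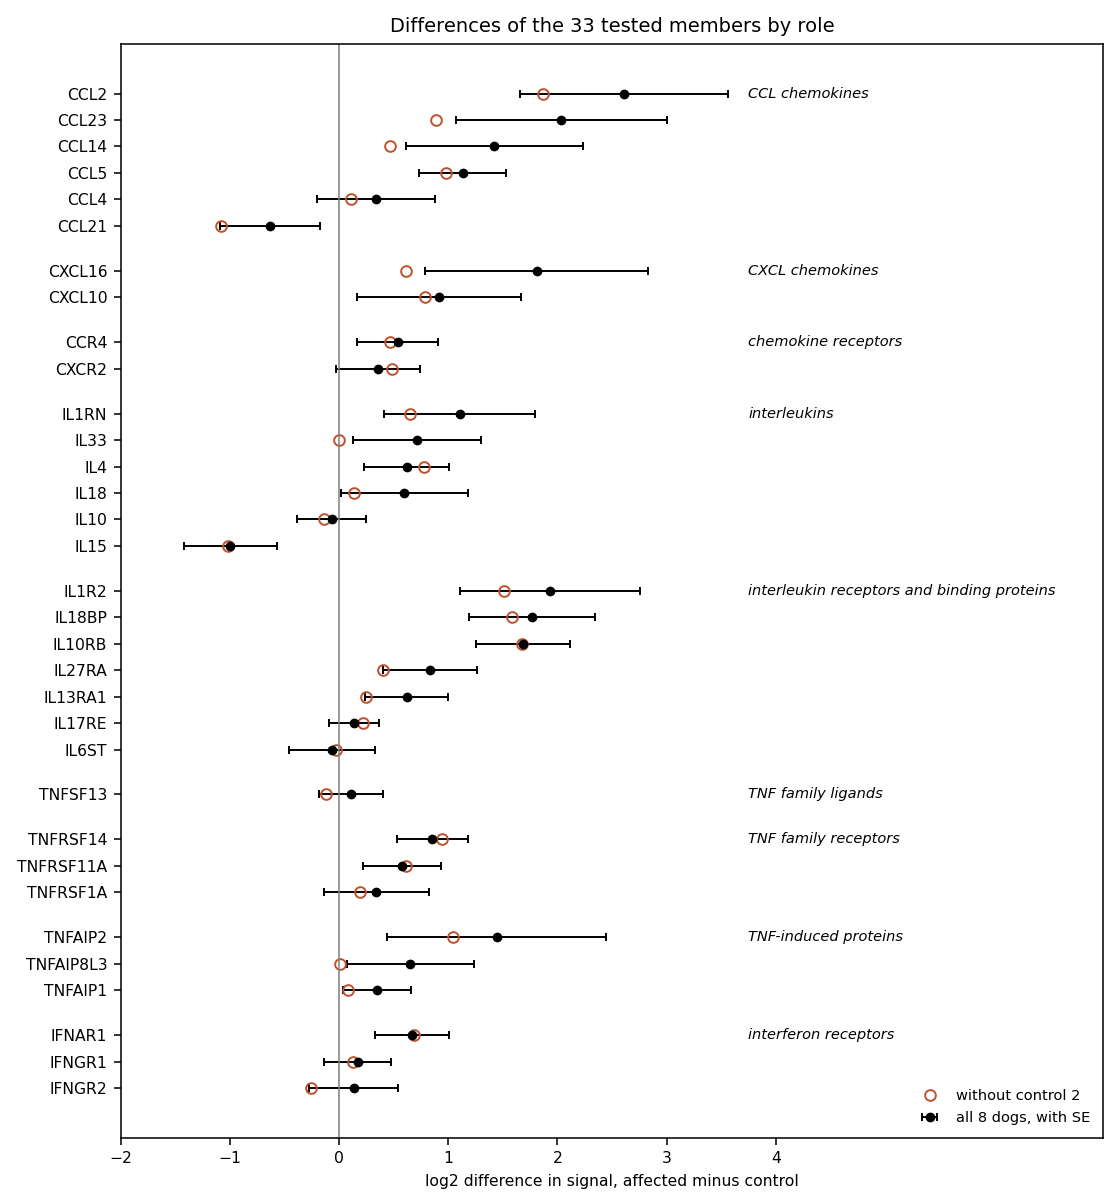
Log2 difference in signal, affected minus control, of the 33 tested members in order of role, with filled points and bars for the estimate and standard error from all 8 dogs and open circles for the estimate without control 2. CCL2 has the greatest difference at 2.61 and IL15 the lowest at -0.996, and the open circles of CXCL16, CCL23, CCL14, CCL2, IL33 and TNFAIP8L3 lie farthest to the left of their filled points.

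The members did not stand alike in all dogs of a group. Affected 4 had the highest signal of the 8 dogs in 15 of the 33 tested members (45.5%), against 11.2% of all tested probe sets, and affected 1 had it in 9 (27.3% against 15.8%). Among others, CCL2, CXCL10, CXCL16, IL18BP, IL1RN and TNFAIP2 were highest in affected 4, and CCL5, CCL14, IL10RB, IL1R2 and TNFRSF14 in affected 1. The other 9 members were highest outside these 2 dogs, 4 of them in affected 3 and 3 in control 3. The median deviation of the members from their own means was 0.56 in affected 4, 0.49 in affected 1 and -0.088 in affected 2 on the log2 scale. The 2 Miniature poodles thus differed, with affected 4 high and affected 2 near the middle. Control 2 had the lowest signal in 18 members (54.5%), against 21.5% of all tested probe sets, with a median deviation of -0.98. Within groups the members also spread more than probe sets in general: the median SD of log2 signal was 0.57 in controls and 0.69 in affected dogs, where all tested probe sets had 0.41 and 0.47. Without control 2 the control medians were 0.37 for the members and 0.28 for all.

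**Figure D2:**
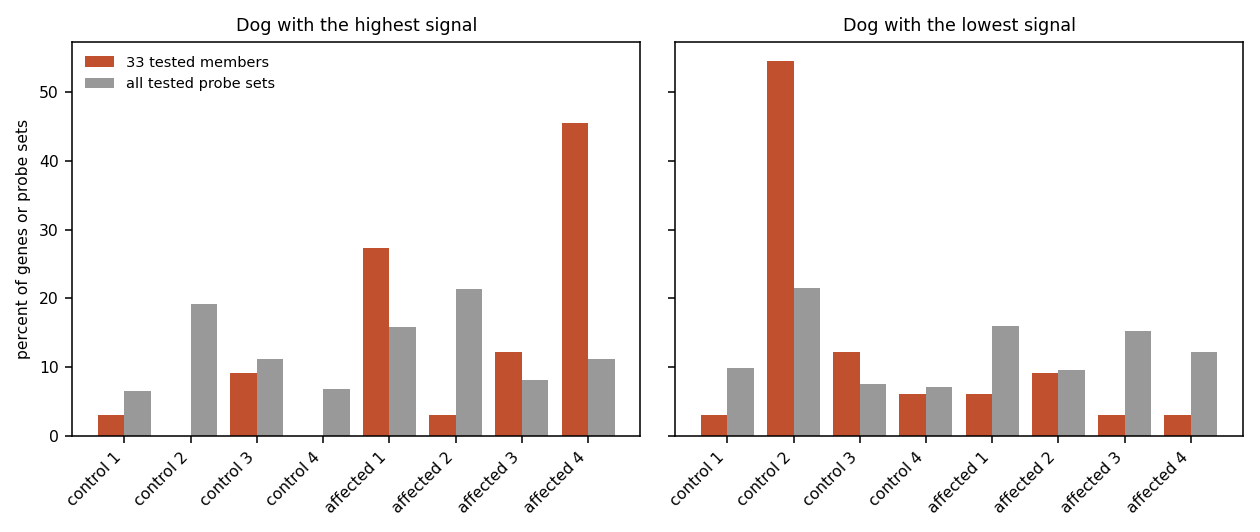
Percent of the 33 tested members (red bars) and of all 14705 tested probe sets (grey bars) for which each dog had the highest signal (left) or the lowest (right). Affected 4 had the highest signal in 45.5% of members and control 2 the lowest in 54.5%.

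Control 2 also stood apart over all tested probe sets, with Spearman correlations to the other dogs between 0.756 and 0.846. Every array had a trimmed mean signal of about 500.1 and medians ran from 124 to 191. The tissue label was checked against markers: of 8 markers of interstitial cells and fibroblasts 6 were measured, and their mean log2 signal lay between 13.33 and 13.97 in 7 dogs and was 11.48 in control 2. Heart muscle markers (4 of 6 measured) were measured as well, from 12.43 to 14.64 in controls with the top in control 2, and from 11.09 to 14.50 in affected dogs.

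The mean log2 signals of macrophage and endothelial markers lay apart between the groups, and those of other cells overlapped. By gene, every affected dog lay above every control for 6 of 9 macrophage markers and 2 of 5 endothelial markers. Over all tested probe sets that share was 2.35%. The groups overlapped for CSF1R, CD163 and AIF1 and for PECAM1, VWF and TEK. Macrophage markers (9 of 10 measured) had mean log2 signals of 6.10 to 8.84 in controls and 9.17 to 10.50 in affected dogs, lowest in control 2 and highest in affected 1, with MARCO in all 4 controls at the floor, a signal of 34.2 to which all lower values were set. Endothelial markers (5 of 7 measured) lay at 10.06 to 10.49 in controls and 10.95 to 11.37 in affected dogs. T cell markers (5 of 10 measured) lay at 7.23 to 7.83 and 7.47 to 7.71, so the groups overlapped. Of B cell, natural killer cell, neutrophil and mast cell markers, 2 of 6, 1 of 6, 1 of 7 and 3 of 6 were measured. The B cell factor PAX5 was at the floor on all arrays, the neutrophil gene ELANE was too dim to test, and the other 6 neutrophil markers and all 5 dendritic cell markers were not named on the array. Fat cell markers (2 of 4 measured) lay at 5.89 to 10.51 in controls and 6.37 to 7.14 in affected dogs. That overlap came from control 2 (5.89) alone, since controls 1, 3 and 4 (8.68, 10.51 and 8.97) lay above all affected dogs. The part of these cells in the cytokine values was not tested, and in whole leaflets more cells of a type and more RNA per cell cannot be told apart.

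The CCL chemokines held the greatest difference. CCL2, which draws monocytes, had signals of 9924, 339, 890 and 2165 in controls 1 to 4 and of 11724, 2840, 11344 and 23842 in affected dogs 1 to 4. Control 1 lay within the affected range, and the other 3 controls lay below all affected dogs. The log2 difference was 2.61 ± 0.95 (SE from limma, n = 4 per group, as for each difference below), or 6.10 times, with an adjusted p of 0.573. It was 1.87 without control 2 and 3.49 without control 1. CCL23, which also attracts monocytes, had signals of 2944, 73.5, 1016 and 1845 in controls and 4474, 2031, 5419 and 2320 in affected dogs. Here too control 1 alone overlapped with the affected dogs. CCL23 differed by 2.03 ± 0.97 (adjusted p = 0.656), and by 0.89 without control 2, whose signal was far under those of the other controls.

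CCL5, which draws T cells and monocytes, was at 504, 253, 429 and 275 in controls and at 1590, 574, 480 and 789 in affected dogs. The overlap was slight, since affected 3 alone fell under the highest control. The difference was 1.13 ± 0.40 (adjusted p = 0.551) and stayed between 0.78 and 1.36 when any 1 dog was left out. CCL14, a chemokine found in plasma, was at 612, 5.01, 401 and 456 in controls and at 1230, 491, 795 and 412 in affected dogs. Its difference of 1.42 ± 0.81 (adjusted p = 0.689) was 0.47 without control 2. CCL4, a macrophage inflammatory protein, was at 474, 101, 146 and 100.4 in controls and 391, 186, 114 and 216 in affected dogs. Its difference of 0.34 ± 0.54 was smaller than the error, and control 1 had the highest signal of all 8 dogs. It was 0.85 without control 1 and 0.028 without affected 1.

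**Figure D3:**
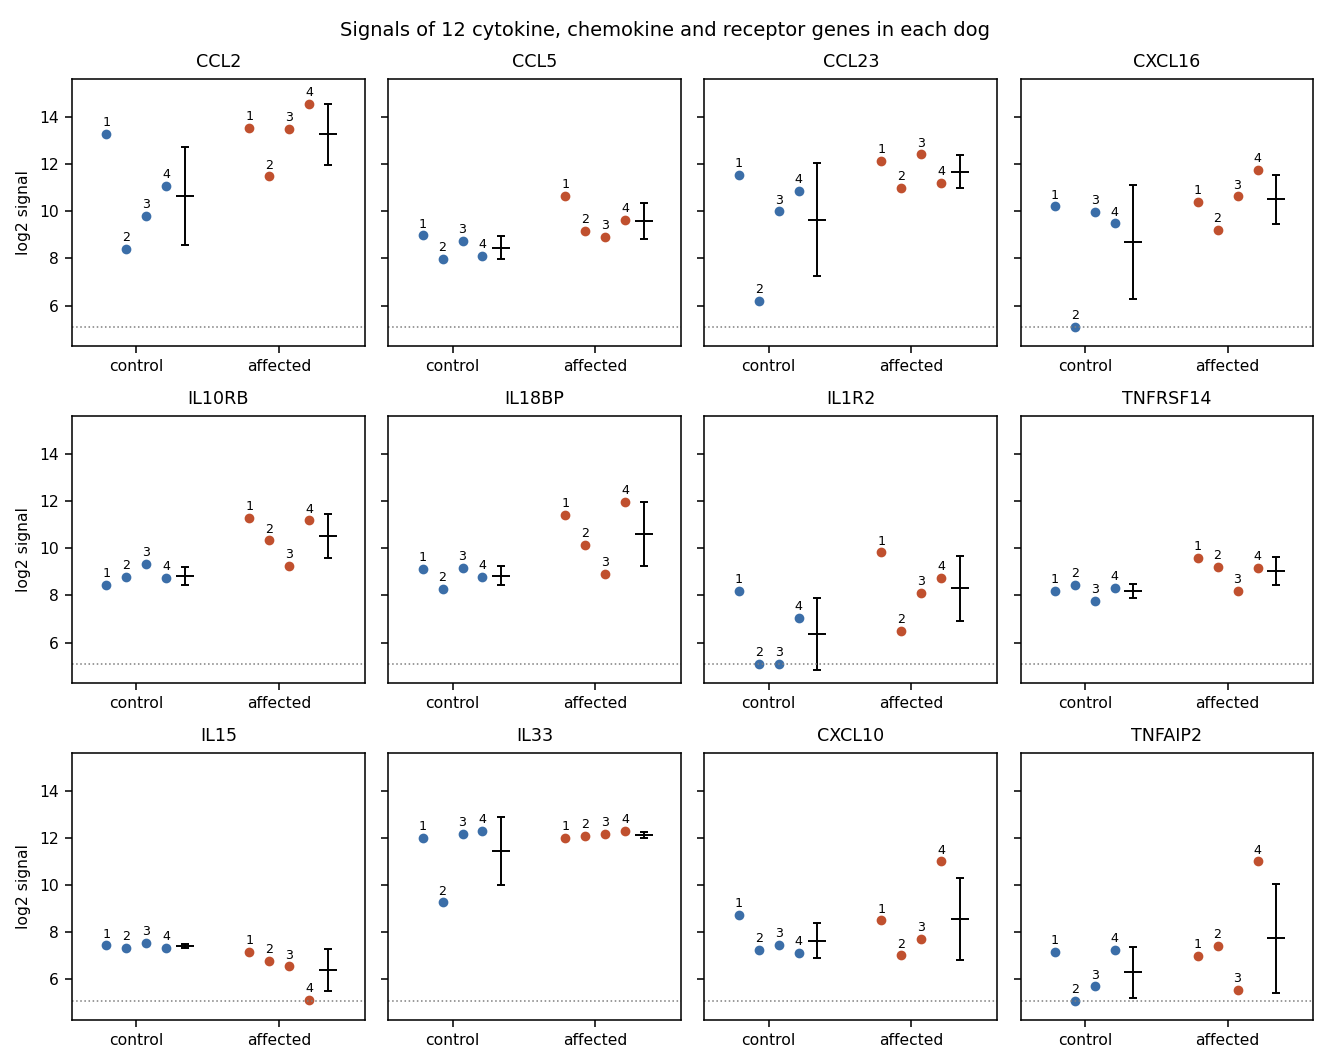
Log2 signal of 12 members in each dog, with blue points for controls and red points for affected dogs numbered as in the text, black bars for the mean and SD of 4 dogs, and a dotted line at the floor of 5.10. IL15 is the only panel in which the groups do not overlap, control 2 is far below the other controls for CCL23, CXCL16 and IL33, and affected 4 is far above the other dogs for CXCL10 and TNFAIP2.

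CCL21, a chemokine of lymphatic endothelium that guides dendritic cells and naive T cells through CCR7, was the 1 CCL chemokine with a lower signal in affected leaflets. Its brightest probe set was at 527, 151, 767 and 363 in controls and at 347, 191, 224 and 258 in affected dogs. Controls 1, 3 and 4 lay above all affected dogs and control 2 lay below them, and the difference was -0.63 ± 0.46 (adjusted p = 0.728). Without control 2 it was -1.09, and without control 3 it was -0.30. The other probe sets gave wider gaps. In the second, controls were at 508, 108, 958 and 291 and affected dogs at 42.8, 112, 113 and 189. The difference there was -1.81 ± 0.65 (adjusted p = 0.572). In the third, controls were at 309, 15.9, 667 and 283, and all affected dogs lay between 18.4 and 34.2. It was not tested, since it exceeded the 40th percentile on 3 arrays only and the filter required 4. All 3 CCL21 probe sets thus placed the same 3 controls above every affected dog, with control 2 apart from them. The platform's suffix for the third (x_at) marks probes that can share signal with other sequences.

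**Figure D4:**
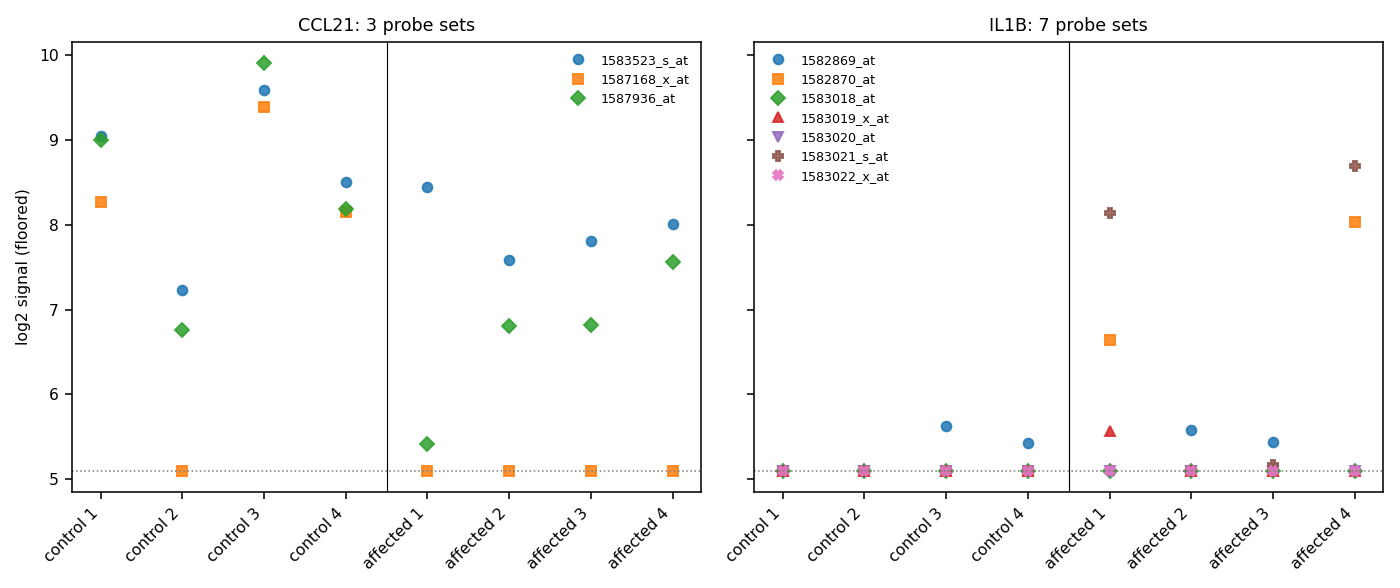
Log2 signal, with values under the floor set to it (dotted line), of each probe set of CCL21 (left) and IL1B (right) in the 8 dogs, 1 symbol per probe set. Controls 1, 3 and 4 lie above the affected dogs for all 3 CCL21 probe sets, and for IL1B the points far above the floor are those of affected 1 and affected 4.

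Of the CXCL chemokines, CXCL16, a membrane-bound chemokine and scavenger receptor of macrophages and endothelium, was at 1177, 26.3, 998 and 715 in controls and at 1344, 587, 1579 and 3472 in affected dogs. Control 2 was under the floor, and the difference of 1.81 ± 1.02 (adjusted p = 0.687) was 0.61 without that dog. CXCL10, an interferon-induced chemokine of T cells, was at 425, 153, 178 and 138 in controls and at 363, 130, 211 and 2043 in affected dogs. A single dog, affected 4, set it apart: the difference was 0.92 ± 0.75 (adjusted p = 0.752) with that dog and 0.11 without it.

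The chemokine receptors had small differences. CCR4, found on regulatory and type 2 helper T cells, was at 83.4, 75.2, 84.8 and 107 in controls and at 238, 96.6, 99.6 and 110 in affected dogs, a difference of 0.54 ± 0.37 (adjusted p = 0.72). Without affected 1 the CCR4 difference was 0.23. CXCR2, the neutrophil receptor for CXCL chemokines, was at 159, 244, 249 and 123 in controls and at 322, 290, 121 and 280 in affected dogs. Affected 3 had the lowest CXCR2 signal of all dogs, and the difference was 0.35 ± 0.38 (adjusted p = 0.816), with 0.68 without affected 3 and 0.16 without control 4.

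For IL1 itself, the decoy receptor IL1R2 and the antagonist IL1RN passed the filter and the agonists IL1A and IL1B did not. Both IL1R2 and IL1RN needed affected arrays to pass. IL1A exceeded the percentile on 3 arrays and the brightest IL1B probe set on 2, where 4 were required. This split comes from the filter and does not show that the agonists were absent. IL1R2, a decoy receptor that binds IL1 without signalling, was at 294, 5.85, 14.8 and 131 in controls and at 899, 90.4, 276 and 425 in affected dogs. Controls 2 and 3 were under the floor, and control 1 lay above affected 2 and affected 3. The difference of 1.93 ± 0.82 (adjusted p = 0.617) depends on the floor, with 1.19 at a floor set to the 40th percentile and 2.87 with none. A second IL1R2 probe set was not tested and its groups overlapped. It was at 94.7, 36.3, 48.5 and 46.1 in controls and at 232, 38.7, 83.6 and 94.9 in affected dogs. Its mean log2 signals of 5.72 in controls and 6.52 in affected dogs lay closer together than those of the brightest probe set (6.36 and 8.29). IL1RN, the receptor antagonist, was at 908, 90.2, 148 and 239 in controls and at 518, 251, 387 and 1226 in affected dogs. Control 1 was above 3 of the affected dogs, and the difference was 1.10 ± 0.69 (adjusted p = 0.705). Without control 1 the IL1RN difference was 1.76, and without control 2 it was 0.65.

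IL1B, the main secreted IL1 agonist of macrophages, had 7 probe sets, of which 0 were bright enough on 4 arrays to be tested. The brightest was at 30.4, 1.57, 16.4 and 5.13 in controls, all under the floor, and at 282, 13.4, 35.9 and 414 in affected dogs. A second IL1B probe set had the same pattern, with controls at 2.23, 1.36, 1.41 and 14.3 and affected dogs at 100.1, 10.5, 0.96 and 261. In both of these IL1B probe sets affected 1 and affected 4 were at 100.1 or more and the other 6 dogs at 35.9 or less, a description with no test. The other 5 IL1B probe sets had no signal above 49.4. IL1A, the related cell-bound agonist, was too dim to be tested at 112, 77.6, 48.3 and 70.0 in controls and 151, 81.4, 63.1 and 231 in affected dogs.

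IL18BP, which binds and neutralises IL18, was at 560, 311, 568 and 441 in controls and at 2695, 1130, 482 and 3981 in affected dogs. Affected dogs 1, 2 and 4 lay above all controls and affected 3 lay among them. The difference was 1.77 ± 0.58 (adjusted p = 0.539), or 3.40 times. Its ligand IL18 was at 237, 3.81, 74.9 and 105 in controls and at 112, 138, 82.5 and 262 in affected dogs, with wide overlap. The IL18 difference was 0.60 ± 0.58 (adjusted p = 0.792), 0.13 without control 2, and from 0.18 to 1.39 as the floor was moved. IL33, an alarm signal stored in nuclei of endothelial cells and fibroblasts, was at 4051, 616, 4552 and 4974 in controls and at 4108, 4296, 4610 and 5020 in affected dogs. Apart from control 2 the dogs had nearly equal IL33 signals, and the difference of 0.71 ± 0.58 (adjusted p = 0.752) was -0.0046 without that dog.

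Among the other interleukins, IL15 was at 174, 161, 186 and 161 in controls and at 144, 112, 93.9 and 35.1 in affected dogs. The groups did not overlap, the controls were close together, and affected 4 was the lowest. The difference was -0.996 ± 0.43 (adjusted p = 0.621), and -0.57 without affected 4. All these IL15 signals were low on this array, and the second IL15 probe set was too dim to be tested. IL4, a cytokine of type 2 immunity, was close to background as well, at 83.4, 113, 57.9 and 80.3 in controls and 119, 228, 88.5 and 100.5 in affected dogs, a difference of 0.62 ± 0.39 (adjusted p = 0.705). The IL4 difference was 0.33 without affected 2 and 0.32 with the floor at the 40th percentile. The second IL4 probe set was under the floor in every dog, with signals from 1.58 to 6.30. IL10, which dampens macrophages, was at 151, 140, 159 and 197 in controls and at 235, 99.2, 141 and 166 in affected dogs. Its difference of -0.070 ± 0.32 was smaller than the error and turned positive without affected 2 (0.14) or control 4 (0.028).

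The receptor IL10RB, the chain shared by IL10 and several related cytokines, had the smallest p of all members. It was at 345, 440, 638 and 431 in controls and at 2470, 1284, 612 and 2306 in affected dogs. Affected dogs 1, 2 and 4 lay above all controls, while affected 3 lay just under control 3. The difference was 1.69 ± 0.43 (adjusted p = 0.377), or 3.22 times, and ranged from 1.43 to 2.10 when any 1 dog was left out. For 9 of the 33 tested members 3 affected dogs exceeded every control and the remaining one lay within the control range. That dog was affected 3 for 5 of them (CCL5, IL10RB, IL18BP, TNFRSF11A and TNFRSF14). It was affected 2 for 3 (CCL2, CXCL16 and IL13RA1) and affected 1 for IFNAR1. This pattern was not counted over all tested probe sets, so the 9 cannot be read as a trait of the members.

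The remaining interleukin receptors differed less. IL27RA, the receptor chain for IL27, was at 985, 318, 1238 and 935 in controls and at 1900, 1196, 894 and 1787 in affected dogs, a difference of 0.83 ± 0.43 (adjusted p = 0.666) that was 0.40 without control 2. IL13RA1, a receptor chain for IL13 and IL4, was at 4516, 1536, 4112 and 4221 in controls and at 5979, 3263, 5105 and 6711 in affected dogs, a difference of 0.62 ± 0.38 (adjusted p = 0.703) that was 0.25 without control 2. IL17RE, a receptor chain of the IL17 family, ran from 685 to 895 in controls and from 661 to 928 in affected dogs, and differed by 0.14 ± 0.22. IL6ST, the signalling chain shared by the IL6 family, ran from 157 to 305 in controls and from 125 to 426 in affected dogs. Its difference was -0.068 ± 0.39, with either sign when single dogs were left out.

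In the TNF family the ligand TNF itself was under the floor on all 8 arrays, with signals from 1.58 to 8.09. TNFSF13, a survival factor for B and plasma cells, ran from 286 to 604 in controls and from 385 to 644 in affected dogs and differed by 0.11 ± 0.29. The receptors were measurable. TNFRSF14, a receptor for TNF family ligands on lymphocytes and other cells, was at 289, 350.2, 216 and 315 in controls and at 759, 583, 289 and 570.0 in affected dogs. It differed by 0.85 ± 0.33 (adjusted p = 0.595), or 1.80 times, and by 0.67 to 1.13 when any 1 dog was left out. TNFRSF11A, the receptor that drives osteoclast formation, was at 171, 214, 303 and 142 in controls and at 342, 341, 164 and 408 in affected dogs, a difference of 0.58 ± 0.36 (adjusted p = 0.705). TNFRSF1A, the main receptor of TNF, was at 421, 328, 476 and 634 in controls and at 259, 380, 799 and 1367 in affected dogs. The affected dogs thus spanned both ends of the TNFRSF1A range, and the difference of 0.34 ± 0.48 was -0.079 without affected 4.

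Of the TNF-induced genes, TNFAIP2, which endothelial cells switch on in response to TNF, was at 144, 31.7, 52.1 and 154 in controls and at 128, 173, 47.4 and 2045 in affected dogs. As for CXCL10, affected 4 stood alone: the TNFAIP2 difference was 1.44 ± 1.00 (adjusted p = 0.725) with that dog and 0.36 without it. TNFAIP1, an adaptor of a ubiquitin ligase, had 9 probe sets of which 5 were tested. The brightest ran from 674 to 1694 in controls and from 1113 to 1732 in affected dogs and differed by 0.35 ± 0.31, with 0.078 without control 2 and 0.076 with the mean of its probe sets. Of the 5, 4 were higher and 1 was lower, from -0.39 to 0.35, so the TNFAIP1 probe sets disagreed in direction. TNFAIP8L3, a lipid transfer protein, ran from 115 to 986 in controls and from 538 to 1109 in affected dogs. It differed by 0.65 ± 0.58, and by 0.0056 without control 2.

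All 3 named interferon receptor chains were bright enough to be tested. IFNAR1, a chain of the type I interferon receptor, was at 373, 341, 284 and 344 in controls and at 368, 397, 520 and 1056 in affected dogs, a difference of 0.67 ± 0.34 (adjusted p = 0.665) that was 0.34 without affected 4. IFNGR1 and IFNGR2, the chains of the interferon gamma receptor, differed by 0.17 ± 0.31 and 0.13 ± 0.41. IFNGR1 ran from 298 to 660 in controls and from 378 to 677 in affected dogs, and IFNGR2 from 1075 to 3838 and from 1673 to 3455. Without control 2 the IFNGR2 difference was -0.26, and without control 3 that of IFNGR1 was -0.049. IFNG, interferon gamma itself, was too dim to be tested, at 36.7, 140, 9.48 and 73.2 in controls and 139, 17.1, 6.55 and 49.9 in affected dogs.

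The 19 members not tested, called near background, were 7 interleukins, 6 interleukin receptors, 3 CCL chemokines, CCR3, TNF and IFNG. Of these, 5 were under the floor on all 8 arrays: CCL16, IL12B, IL2, IL5 and TNF. A low signal of a probe set does not show that the transcript is absent. CCL3, a macrophage inflammatory protein, exceeded the 40th percentile on 3 arrays and had the control 1 pattern of CCL4, at 267, 43.3, 66.9 and 22.6 in controls and 188, 41.5, 65.3 and 149 in affected dogs. IL12A, a chain of IL12, was at 141, 27.3, 27.3 and 30.6 in controls and at 62.0, 45.5, 95.3 and 146 in affected dogs. The others were CCL17, CCR3, IL13, IL13RA2, IL17RB, IL2RA, IL2RB, IL2RG and IL5RA, with no signal above 147 on any array. The IL2 receptor chain IL2RB had a dimmer probe set in which affected dogs (72.1 to 115) lay above controls (21.6 to 59.0), while the brightest one overlapped (57.4 to 126 against 47.9 to 123).

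**Figure D5:**
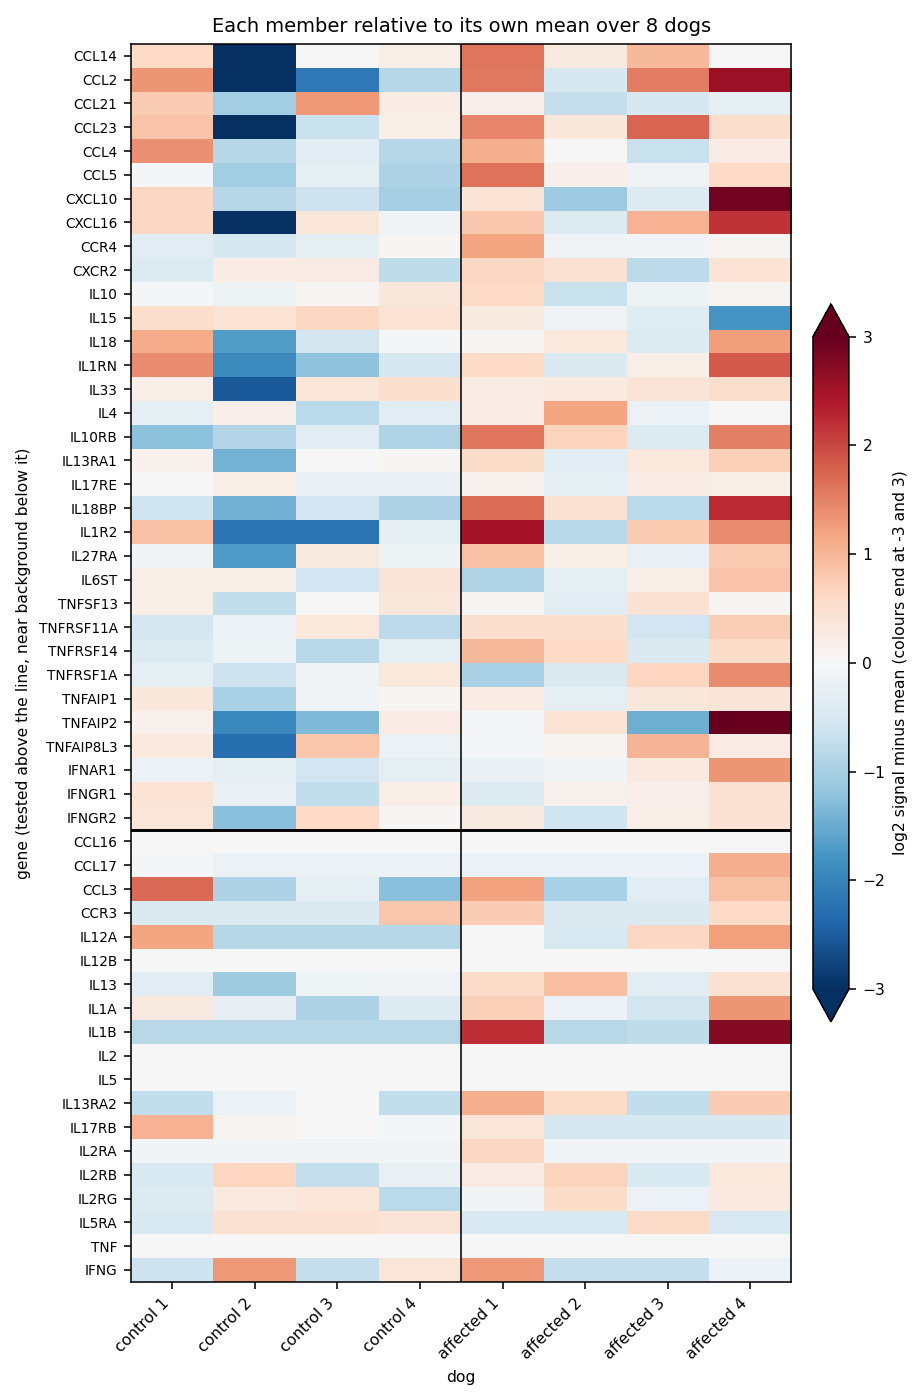
Log2 signal of all 52 members in each dog minus that gene's mean over the 8 dogs, with red above and blue below the mean and colours ending at -3 and 3, the 33 tested members above the thick line and the 19 near background under it. Control 2 is the bluest column and affected 1 and affected 4 are the reddest, and 5 genes that were under the floor on all arrays are white throughout.

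Other genes of these pathways were read from lists of genes outside the symbol rule. Of 38 further cytokine and receptor genes 7 were named on the array and 5 tested, 3 higher and 2 lower, with a median of 0.074 (0.0048 without control 2). CD40, a TNF family receptor of antigen-presenting cells, was at 268, 245, 233 and 252 in controls and at 753, 431, 353 and 1085 in affected dogs. The groups did not overlap for CD40, and the difference was 1.25 ± 0.35 (adjusted p = 0.442). CSF1R, the growth factor receptor of macrophages, differed by 1.57 ± 0.79 (adjusted p = 0.665), and by 0.64 without control 2. Of 51 signalling genes downstream of cytokine receptors 11 were named and 10 tested, 7 higher and 3 lower with a median of 0.18. Without control 2 these were 6, 4 and 0.012. For comparison with both lists, 50.5% of all tested probe sets were higher, and 49.7% without control 2. Of the 10, 0 reached an unadjusted p under 0.05, where 4.02% of all tested probe sets were higher and 3.81% lower at that level. The smallest p belonged to NFKBIA, an inhibitor of NF-kappaB that is induced by it, at 0.84 ± 0.43 (adjusted p = 0.666), and to the transcription factor STAT3, at 0.55 ± 0.30 (adjusted p = 0.672).

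Of 39 interferon response genes 14 were named and 13 tested, 12 higher and 1 lower with a median of 0.46, against 50.5% higher over all tested probe sets. Control 2 was the lowest control for all 13. Without that dog 9 were higher and 4 lower with a median of 0.23, against 49.7% higher over all tested probe sets. With all dogs 2 of the 13, TAP1 and MX2, were higher at an unadjusted p under 0.05, and 0 were lower. At that level 4.02% of all tested probe sets were higher and 3.81% lower. TAP1, which carries peptides to class I molecules, was at 791, 181, 552 and 516 in controls and at 1208, 857, 1114 and 1337 in affected dogs. The groups did not overlap for TAP1, and it differed by 1.31 ± 0.41 (adjusted p = 0.523), and by 0.87 without control 2. MX2, an antiviral GTPase, was at 400, 98.2, 189 and 145 in controls and at 239, 323, 447 and 415 in affected dogs, a difference of 0.94 ± 0.42 (adjusted p = 0.636) that was 0.64 without control 2. In these lists 0 genes passed the threshold over all probe sets.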

How the data were processed

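Per the submitters' processing notes, the authors used MAS5 to make the deposited values, which are probe set intensity signals on a linear scale. Its version and detection calls are not stated there, and values near background are imprecise. Gene names came from the platform annotation. Of the 52 representative probe sets, 50 had a gene identifier listed by RefSeq (dog assembly UU_Cfam_GSD_1.0), and the 2 probe sets of TNFSF13 carry different identifiers.

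Array signals were brought to one trimmed mean (2% off each end), floored at 34.2, the 20th percentile of all signals (5.10 as log2), and log2 was taken. Groups were compared with limma 3.58.1 in R 4.3.3 (two-sided; lmFit, then eBayes with an intensity trend), and p-values were adjusted by Benjamini-Hochberg over 14705 probe sets. Alternatives were 3 scalings, 2 filters, 3 floors, 2 priors, a block for the replicate number, array weights, the mean of a gene's probe sets and leaving out each dog. The script was tested on simulated data.

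Members, lists and tests were chosen with earlier results of these data known. The naming rule took members with an unadjusted p under 0.05 or no overlap, the 2 smallest p and the brightest of each role, the 8 brightest and a fixed list. The other members are given to account for all 52.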

Additional observations from a re-analysis of the deposited data

Results flagged for a closer look

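In 66 sets of 4 dogs (33 tested members, 2 groups), 6 had a dog whose gap to its nearest neighbour, divided by the whole range, exceeded Dixon's critical value for 4 values. Chance alone flags about 1 set in 20. Control 2 was the low dog in 4 of them, with gap ratios of 0.853 for CCL14, 0.859 for CXCL16, 0.913 for IL13RA1 and 0.902 for IL33. Affected 1 was the high dog for CCR4, with a ratio of 0.854. Affected 3 was the low dog for CXCR2, with a ratio of 0.855.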

How the results depend on the processing

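The median difference of the tested members stayed above 0 under every setting run, from 0.42 without affected 4 to 0.85 without control 1. The members past the threshold numbered 0 under every setting, and the smallest adjusted p over all probe sets without a dog left out ranged from 0.0187 with the replicate block to 0.345. The sample titles give replicate numbers and state no pairing of dogs. Same-numbered deviations correlated at -0.116, 0.409, 0.022 and -0.0132, and the other combinations at -0.463 to 0.461. Such correlations cannot settle whether the numbers pair the dogs. With the replicate number as a block, 4 probe sets passed, 0 of them members. With that block 11 members were higher at an unadjusted p under 0.05 in place of 6, against 4.56% of all tested probe sets. Leaving out single dogs gave 0 to 1 probe sets past the threshold (1 without control 1). It gave 3 to 8 members higher and 0 to 1 lower at an unadjusted p under 0.05. Of all tested probe sets, 2.58% to 6.84% were then higher and 2.14% to 5.67% lower at that level. Members wholly above the controls then numbered 0 to 6, and those wholly below 1 to 2. The 6 came without affected 3, where 7.2% of all tested probe sets were wholly above. The 2 came without control 2, where 5.23% were wholly below. The values of the pathway lists without control 2 were added after seeing the data. Median centring gave 1 member wholly above, against 1.73% of all tested probe sets. The lower members at an unadjusted p under 0.05 were 0 with no filter (3.2% of all) and 0 with the stricter filter (4.23%). They were 2 with the mean of a gene's probe sets (3.81%). The stricter filter left 0 members wholly below (2.56% of all), since IL15 was not tested there. With no filter on dim probe sets 40 of 52 members were higher, 7 lower and 5 at the floor throughout, against 50.9% higher over all. With array weights IFNGR2 was at -0.035 and TNFSF13 at -0.13. Leaving out single dogs moved IFNGR1 from -0.049 to 0.33, IFNGR2 from -0.26 to 0.36, IL10 from -0.28 to 0.14, IL33 from -0.0046 to 1.00, IL6ST from -0.37 to 0.22, TNFRSF1A from -0.079 to 0.72 and TNFSF13 from -0.12 to 0.24. The cause of these moves was not tested. Signals near background limit IL15, IL4, CCR4, IL18, IL1R2, TNFAIP2 and the members not tested.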
